A study of Homo sapiens with 4 samples.

Results

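Caco-2 cells, an established line from a human colon cancer, form a polarized, enterocyte-like layer on filters. RNA-seq counts of 10 genes of the ETS transcription factor family (ETV7, ETV6, ETS1, ETS2, ELF1, ELF3, ELF4, EHF, ETV4 and ETV5) were examined in 4 libraries of this line, out of 37515 genes listed. In both groups the cells had been grown on transwells with regular changes of MEM, the stimulated cells for 15 days before IFNγ was given. All 4 libraries were labelled WT (wild type). The unstimulated group held 2 libraries at 0 h without IFNγ, and the stimulated group held 2 libraries taken 3 h after 60 ng/ml IFNγ was added to the basal compartment. No library was taken after 3 h without IFNγ, so the cytokine and the elapsed time cannot be told apart. The genes were chosen by family membership and expression in epithelium, with the change of ETV7 and ETS1 after IFNγ already known, and were found by the Ensembl identifier paired with each symbol. Their values are therefore given as a description, without p-values. The human family has 28 genes on the list used, and the other 18 are given further on.

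ETS factors share a winged helix-turn-helix DNA-binding domain that recognizes a GGAA core. In gut epithelium, ELF3 and EHF are epithelium-restricted members linked to differentiation, whereas ELF1 and ELF4 are widely expressed activators. ETS1 and ETS2 are targets of the MAP kinase ERK, and ETV4 and ETV5 of the PEA3 subgroup are produced under control of the same cascade. ETV6 and its close relative ETV7 are transcriptional repressors, and ETV7 is known as an interferon-stimulated gene. ETV7 is also on the study's list of genes mediated by TRAFD1, and ETS1 is among its prioritized celiac disease genes.

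Libraries held 7171455 to 10365346 counts, and 1 CPM corresponded to 7.14 to 10.3 counts after TMM scaling. As a check of the labels, IRF1 stood at 19.3 and 20.2 CPM without IFNγ and at 1201 and 1085 CPM with it. All 10 intestinal epithelial markers examined were detected, their levels summing to 5663 to 6127 CPM in unstimulated and 7012 to 7565 CPM in stimulated libraries. These markers did not move together. SI (mean 429 to 196 CPM) and FABP1 were lower after IFNγ and EPCAM overlapped between groups, while the others, such as CDX2 (177 to 407 CPM), were higher. The 5 leukocyte markers summed to 4.28 to 5.32 CPM without IFNγ and to at most 9.69 CPM with it, most of it CD14, while PTPRC was at 0 without IFNγ and had at most 2 counts in a library. Of the 5 stromal and endothelial markers 4 had a row, and these summed to 97.5 to 191 CPM and 127 to 173 CPM, mostly COL1A1. Their part in the results was not tested. Across 14820 genes that passed the filter on low counts, a gene was called at an adjusted p-value under 0.05 with an absolute log2 fold change above 1 (edgeR's quasi-likelihood test). By this rule 7.28% of tested genes were called, 2.88% as higher and 4.4% as lower after IFNγ. With the dependence on GC content and length taken out of each library (GC correction), 359 genes were called higher and 364 lower, against 427 and 652.

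Stretches of promoter are shown for ETS2 and ELF1, which had the largest differences in each direction among the members with an entry in the RefSeq promoter table (GRCh38.p14). For ELF1 this holds without the GC correction described above, with which ELF3 had the lowest value (-0.41, against -0.05 for ELF1). The table held windows for 6 of the 10 members, 12 windows in all, and none for ETV7, ETS1, ETV4 and ETV5. For each gene the window with the most GGAA cores was taken. Each stretch is the 250 bases before an annotated start, 5′ to 3′ along the gene, with the GGAA core or its complement TTCC in capitals.
ETS2, chr21:38805679-38805928, plus strand: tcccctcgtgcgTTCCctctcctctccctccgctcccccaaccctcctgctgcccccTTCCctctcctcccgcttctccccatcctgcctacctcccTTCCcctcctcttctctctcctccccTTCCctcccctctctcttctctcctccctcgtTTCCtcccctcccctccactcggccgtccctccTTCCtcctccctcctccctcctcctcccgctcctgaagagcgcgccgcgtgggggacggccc
ELF1, chr13:41061387-41061636, minus strand: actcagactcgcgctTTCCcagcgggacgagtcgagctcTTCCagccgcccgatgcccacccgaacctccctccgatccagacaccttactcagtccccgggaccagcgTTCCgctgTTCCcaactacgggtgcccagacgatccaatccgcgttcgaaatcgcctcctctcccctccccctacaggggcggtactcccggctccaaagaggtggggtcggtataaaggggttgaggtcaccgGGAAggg
Over the full 300-base windows the core was found 7 times for this ETS2 start and 5 times for this ELF1 start, on either strand. The other ETS2 window held 4 cores and the other ELF1 windows 3 and 0, and the median over 35116 windows was 3. As the windows shown were chosen for their cores, nothing is read from the comparison with all windows. The longer motif CCGGAA, which contains the core, was in 17.25% of all windows and in 0 of the 12. The interferon-stimulated response element, searched as a pair of GAAA with any 2 bases between them, was in 3.57% of all windows and in 0 of the 12. Both strands were searched, and a window without a match says only that these letters are not in it.

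Among the repressors, ETV7 differed most (ENSG00000010030, minus strand of chromosome 6, 36321868 to 36355577 in GENCODE 44 on GRCh37). Its counts were 17 and 12 in the unstimulated libraries and 479 and 342 after IFNγ. In normalized units these were 1.66 and 1.68 CPM before and 46.6 and 46.7 CPM after. Both stimulated libraries were far above both unstimulated ones, and the replicates of each group lay close together. The mean went from 1.67 ± 0.018 (SD, n = 2) to 46.6 ± 0.051 (SD, n = 2) CPM, 27.9 times as high, and the fitted log2 fold change was 4.79 (standard error 0.19). Counting error alone allows 9.90 to 27.2 counts for the first unstimulated library and 6.20 to 21.0 for the second (exact Poisson interval, 95%), so the size of the fold rests on few reads. In the order of log2 fold changes ETV7 was number 16 of 14820 tested genes, and number 3 of the 13355 with at least 10 counts in every library. ETV6, known for its part in hematopoiesis, had 28 and 19 counts without IFNγ and 48 and 24 with it. These were 2.73 and 2.66 CPM against 4.67 and 3.27 CPM, and the groups did not overlap. The log2 fold change of ETV6 was 0.57 (standard error 0.33), with 0.27 when the first stimulated library was left out and 0.77 without the second. Per length, as CPM per kb of exon, ETV7 was 1.85 and 1.92 times the level of ETV6 in the unstimulated libraries. After IFNγ that ratio was 30.4 and 43.4.

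**Figure D1:**
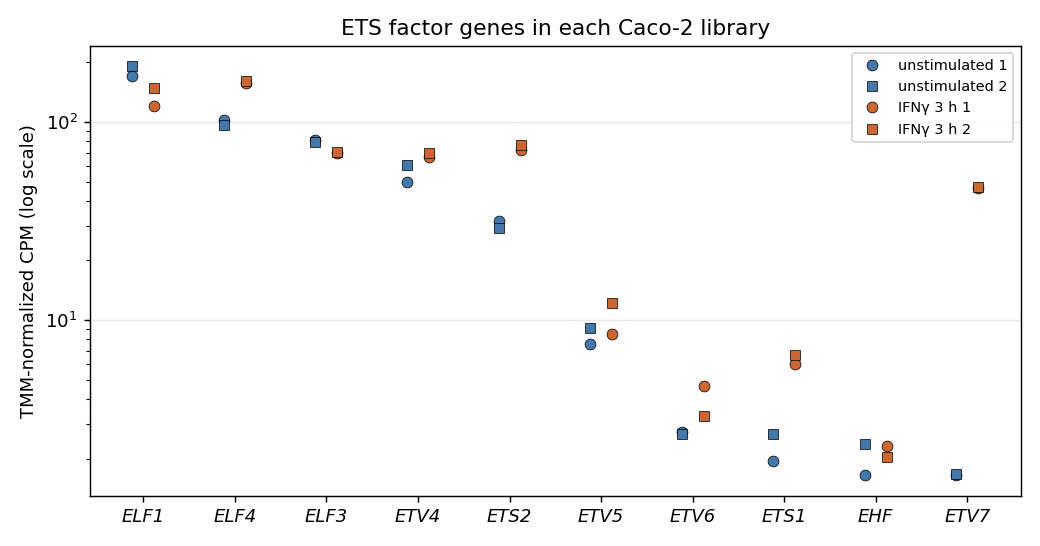
TMM-normalized CPM (log axis) of the 10 genes in each library, blue for unstimulated and orange for IFNγ, circles for replicate 1 and squares for replicate 2. ETV7 goes from the lowest level, 1.67 CPM on average, to 46.6 CPM, while EHF and ETV5 overlap between groups.

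The ERK-responsive pair ETS1 and ETS2 had similar log2 fold changes at very different levels. ETS1 (ENSG00000134954, minus strand of chromosome 11, 128328656 to 128457453 on GRCh37), known for its role in lymphocyte development, had 20 and 19 counts in the unstimulated libraries. It had 62 and 49 counts after IFNγ. In CPM these were 1.95 and 2.66 without IFNγ and 6.03 and 6.69 with it, so that the groups were well apart. The log2 fold change was 1.48 (standard error 0.31), and it was 1.52 and 1.26 between libraries of the same replicate number. Without the first unstimulated library it was 1.25, and ETS1 was then not past the call rule. ETS2 (ENSG00000157557, plus strand of chromosome 21, 40177107 to 40196879 on GRCh37) stood at 31.6 and 29.0 CPM in the unstimulated libraries. It stood at 72.1 and 76.3 CPM after IFNγ, again without overlap. The mean went from 30.3 ± 1.87 (SD, n = 2) to 74.2 ± 2.97 (SD, n = 2) CPM, and the fitted log2 value was 1.29 (standard error 0.13). Exons of ETS2 overlap those of a gene on the opposite strand, and no source used here says if reads were counted by strand. Per length, ETS1 stood at 0.0428 and 0.0639 times the level of ETS2 without IFNγ and at 0.0583 and 0.0610 times after it, so the ranges of the ratio overlapped. FLI1, which lies 99.0 kb from ETS1 on chromosome 11, had 0 counts in every library, which allows up to 0.292 to 0.42 CPM (3 counts per library, counting error only). ERG, the neighbor of ETS2 on chromosome 21, was not analysed here.

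The broadly expressed activators ELF4 and ELF1 differed in opposite directions. ELF4, known for its part in innate immune and CD8 T cell responses, stood at 102 and 96.1 CPM without IFNγ. It stood at 156 and 160 CPM with it, a log2 fold change of 0.68 (standard error 0.11). ELF1, the member with the highest level without IFNγ, stood at 170 and 190 CPM without IFNγ and at 120 and 147 CPM with it. After IFNγ it was below ELF4 in both libraries on the CPM scale. Both stimulated libraries of ELF1 were below both unstimulated ones, with a log2 fold change of -0.43 (standard error 0.14). ELF1 has a low GC content (37.8%), and with the GC correction its log2 fold change was -0.05. ELF4, with 54.3% GC, was at 0.48 with the correction. The per-length ratio of ELF4 to ELF1 was 0.511 and 0.428 in the unstimulated libraries and 1.10 and 0.923 after IFNγ. The ratio was thus higher in both stimulated libraries, by 1.11 on the log2 scale between libraries of either replicate number. With the longest transcript as length it was 0.431 and 0.361 before and 0.931 and 0.779 after, so ELF4 stayed below ELF1. These ratios are without the GC correction, which put the log2 fold changes of ELF4 and ELF1 at 0.48 and -0.05.

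Of the epithelium-restricted members, ELF3 was lower after IFNγ by an amount that depended on the fit, and EHF overlapped between groups. ELF3 stood at 80.5 and 79.2 CPM without IFNγ and at 69.4 and 70.5 CPM with it. The groups did not overlap, but the log2 fold change was only -0.19 (standard error 0.11), and it was -0.41 with the GC correction. Exons of ELF3 overlap those of the antisense gene ELF3-AS1 and of ENSG00000249007 on the same strand. EHF had 17 counts in each unstimulated library and 24 and 15 after IFNγ. In CPM these were 1.66 and 2.38 against 2.33 and 2.05, so the groups overlapped and a difference was not detectable at this depth (log2 fold change 0.15, standard error 0.38). Its value was -0.11 when the first unstimulated library was left out. ELF5, the relative of EHF 95.9 kb away on chromosome 11, had 1 count in one unstimulated library and 0 in the other libraries.

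The PEA3 factors ETV4 and ETV5 had small positive values. ETV4 stood at 49.95 and 60.5 CPM without IFNγ and at 66.4 and 69.9 CPM with it, without overlap. Its log2 fold change was 0.31 (standard error 0.14) and was -0.0023 with the GC correction, its GC content being 60.6%. Exons of ETV4 overlap those of DHX8 on the opposite strand, and exons of ETV5 those of DGKG on the same strand. ETV5 stood at 7.59 and 9.11 CPM without IFNγ and at 8.56 and 12.3 CPM with it, so the groups overlapped (log2 fold change 0.31, standard error 0.25). The per-length ratio of ETV4 to ETV5 was 10.8 and 10.9 before and 12.7 and 9.34 after IFNγ, with no common direction.

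**Figure D2:**
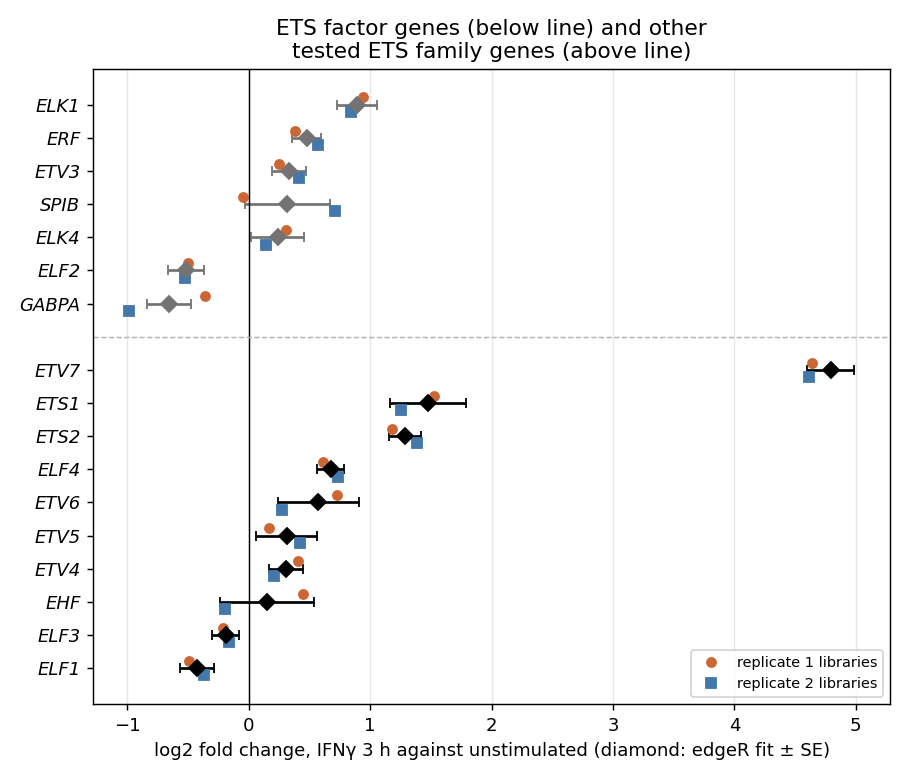
Log2 fold change (x axis) of the 10 genes below the dashed line and of 7 other tested ETS family genes above it, diamonds for the edgeR fit with its standard error, and circles and squares for libraries of replicate 1 and 2 (log2 CPM with a prior count of 2). ETV7 stands alone at 4.79, ETS1 and ETS2 lie at 1.48 and 1.29, and the other genes shown lie between -0.66 and 0.89.

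Taking the 10 genes as a list, all 10 passed the filter on low counts, 8 had a positive and 2 a negative log2 fold change, and the median was 0.44, against -0.01 over all tested genes. In 6 of them both stimulated libraries were above both unstimulated ones, an arrangement seen in 31.6% of all tested genes. In 2 both were below, which held for 30.8% of all tested genes, and in 2 the groups overlapped. ETV7, ETS1 and ETS2 were past the call rule as higher (3 of 10, against 2.88% of all tested genes) and 0 as lower. Since the list was drawn up with this comparison known, nothing is read from these counts.

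Per length the order of the members changed. Without IFNγ it was ELF1 at 40.5 ± 3.29 (SD, n = 2) CPM per kb, then ELF4 (18.9), ETV4 (15.7), ELF3 (11.1), ETS2 (6.09), ETV5 (1.45), ETV7 (0.703), ETV6 (0.373), ETS1 (0.322) and EHF (0.305). ELF1 was above 93.0% of the tested genes on this scale and EHF above 4.55%. Neighbors in this order were separate in both libraries, except ETV6 and ETS1, and ETS1 and EHF. After IFNγ the order was ELF4 (30.2), ELF1 (30.1), ETV7 (19.6), ETV4 (19.4), ETS2 (14.9), ELF3 (9.73), ETV5 (1.80), ETS1 (0.889), ETV6 (0.549) and EHF (0.331). Here ELF4 and ELF1 could not be separated, nor could ETV7 and ETV4. Both orders depend on the length used, here the union of all exons (3515 bases for ETV4, against 2335 for its longest transcript). With the longest transcript as length, ETV4 was above ELF4 in both unstimulated libraries. In both stimulated libraries ELF1 was then above ELF4, and ETV4 above ETV7. With union exons, the sum over the 10 genes was 92.4 and 98.6 CPM per kb before and 123 and 132 after. ETV7 made up 0.736% of this sum before and 15.4% after, and ELF1 42.4% before and 23.6% after.

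**Figure D3:**
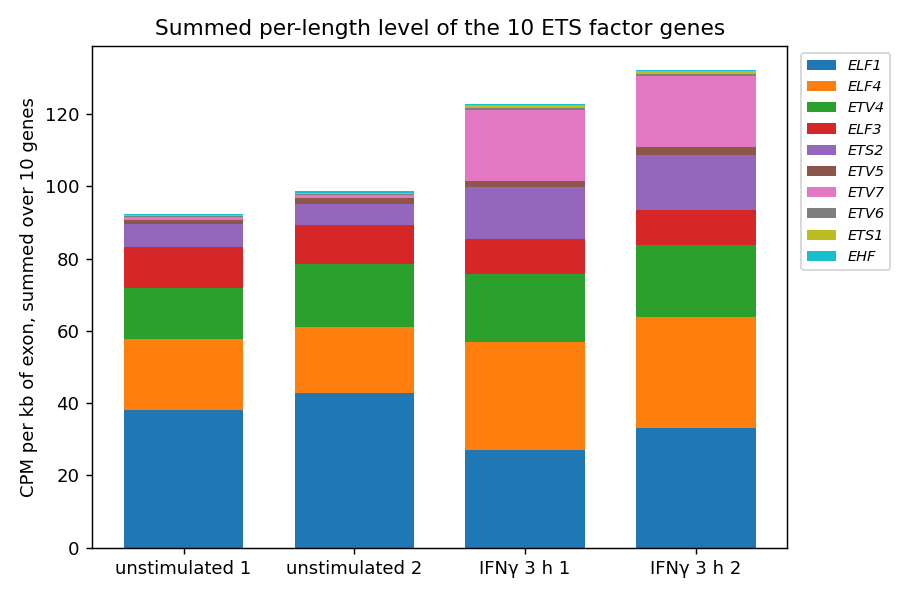
Level per length (CPM per kb of exon) of the 10 genes, stacked, in each library. The ETV7 segment is barely visible in the unstimulated libraries (0.736% of the mean sum) and takes 15.4% of the mean sum after IFNγ.

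The log2 fold change depended on the GC content of transcripts over all tested genes, and among the 10 members some went with this trend and some against it. In the main fit ELF1, with the lowest GC content (37.8%), had the lowest value, and ETV7, with 59.4%, the highest. Against the trend, ETS1, with 43.6% GC, had the second highest value, and ELF3, with 56.0%, a negative one. Over 14518 tested genes with an annotated sequence, the log2 fold change and GC content had a Spearman rho of 0.431 (across genes, which share libraries and are not replicates). The median log2 fold change was -0.37 in the 3630 genes with the lowest GC content, among them ELF1 and EHF. It was 0.21 in the 3630 genes with the highest, among them ETV7, ELF3 and ETV4. With the GC correction ETV7 was at 4.50, ETS1 at 1.61 and ETS2 at 1.16 on the log2 scale. What gave rise to the trend was not tested.

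**Figure D4:**
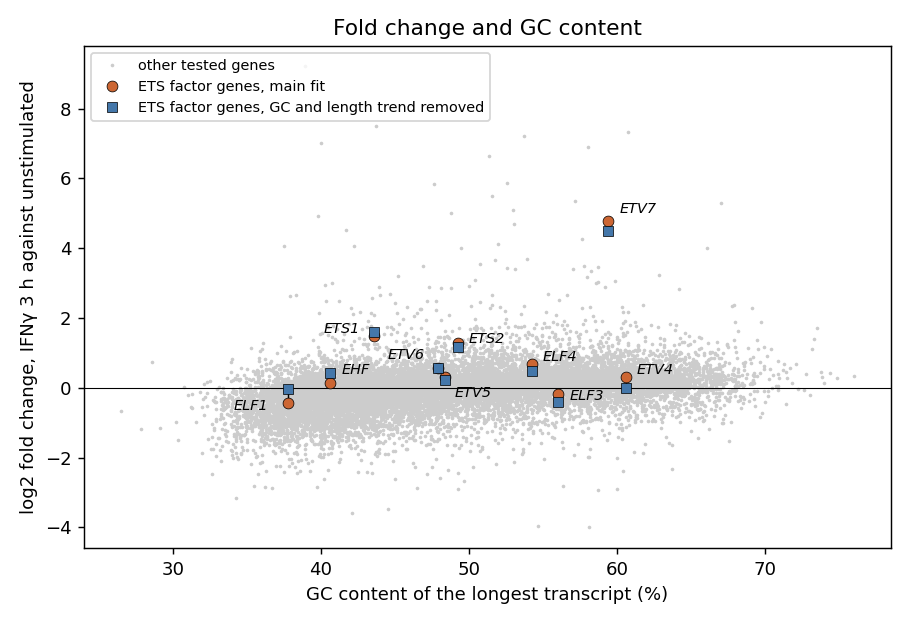
Log2 fold change (y axis) against GC content of the longest transcript in percent (x axis), gray for other tested genes, orange circles for the 10 genes in the main fit and blue squares after the GC correction. The correction brings ELF1 from -0.43 to -0.05 and ETV4 from 0.31 to -0.0023, and leaves ETV7 at 4.50.

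Of the 18 other ETS genes 16 had a row and 7 passed the filter, with 5 positive and 2 negative log2 fold changes and a median of 0.32. None of the 7 was called by edgeR's quasi-likelihood test (0 by DESeq2 as well), against 7.28% of all tested genes, while 5 had an unadjusted p-value under 0.05, as did 35.4% of all tested genes. With the adjusted p-value as the only criterion 4 passed, 2 higher and 2 lower, as did 20% of all tested genes (9.02% higher and 11% lower). ELK1, a ternary complex factor that activates immediate-early genes with SRF, was higher, from 26.7 ± 4.10 (SD, n = 2) to 49.4 ± 5.14 (SD, n = 2) CPM (log2 fold change 0.89, standard error 0.16, adjusted p = 0.0105 from edgeR). It was called when the second unstimulated library was left out. The ERK-regulated repressor ERF was higher as well, from 72.9 ± 2.82 (SD, n = 2) to 101 ± 5.26 (SD, n = 2) CPM (log2 fold change 0.48, adjusted p = 0.0298 from edgeR). GABPA, a regulator of mitochondrial and housekeeping genes, was lower, from 32.1 ± 4.11 (SD, n = 2) to 20.2 ± 3.65 (SD, n = 2) CPM (log2 fold change -0.66, adjusted p = 0.0442 from edgeR). ELF2, a relative of ELF1, was lower too, from 29.3 ± 1.03 (SD, n = 2) to 20.4 ± 0.428 (SD, n = 2) CPM (log2 fold change -0.52, adjusted p = 0.0445 from edgeR). GABPA and ELF2 have 36.7% and 39.6% GC, and ELK1 and ERF 57.4% and 63.9%, so their directions went with the GC trend over all tested genes. The values given for these genes are without the GC correction. With it the median of the 7 genes was 0.15, and 0 were called. ELK4 had a log2 fold change of 0.24 and an adjusted p-value of 0.48 from edgeR. The 9 genes that did not pass the filter had at most 10 counts in any library, and 3 of them (FLI1, SPI1 and ETV3L) had 0 in each. SPIC was not analysed here.

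ERK signaling acts on several of these factors, and a list of 16 genes used as a readout of that cascade was examined beside them. All 16 were tested, 10 were called as higher (62.5%, against 2.88% of all tested genes) and 0 as lower, and the median log2 fold change was 1.29. That early genes were higher in these libraries was known when the list was written, so this is no independent evidence. DUSP6, a phosphatase that inactivates ERK, rose from 58.2 ± 3.44 (SD, n = 2) to 255 ± 50.1 (SD, n = 2) CPM (log2 fold change 2.13, adjusted p = 0.000658 from edgeR). The feedback inhibitor SPRY4 rose from 13.9 ± 1.25 (SD, n = 2) to 55.3 ± 1.75 (SD, n = 2) CPM (log2 fold change 1.98, adjusted p = 0.000633 from edgeR). The receptor tyrosine kinase gene EPHA2 rose by 2.31 on the log2 scale, and the cell cycle gene CCND1 by 1.31. The early transcription factor genes MYC, EGR1 and FOSL1 rose by 2.87, 2.68 and 3.04, PHLDA1 by 1.26 and the phosphatase gene DUSP5 by 1.08. DUSP4 was called as well, from 4 and 2 counts to 20 and 11, but it was not called by DESeq2 nor in any fit with a library left out. Without the second stimulated library PHLDA1 (0.97) and DUSP5 (0.83) were not called, and DUSP5 was not called with the GC correction (0.81). SPRED2 (log2 fold change 0.59, adjusted p = 0.0119 from edgeR) and SPRY2 (0.89, adjusted p = 0.00612) stayed under the fold change threshold. The direction was not shared by the whole list, since EPHA4, SPRY1 and IL17RD had values of -0.29, -0.45 and -0.59 and were not called.

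Regulators and partners of ETS proteins showed no common direction. Of 20 genes tested, 8 had a positive and 12 a negative log2 fold change (median -0.11), 1 was called as higher and 1 as lower. These 2 make 10% of the list, near the 7.28% called over all tested genes (2.88% higher and 4.4% lower). RUNX1, a DNA-binding partner of ETS1, rose from 6.30 ± 0.185 (SD, n = 2) to 35.4 ± 0.846 (SD, n = 2) CPM (log2 fold change 2.49, standard error 0.16, adjusted p = 0.000434 from edgeR). Its value was 6.43 and 6.16 CPM without IFNγ and 36.0 and 34.8 CPM with it. GABPB2, a partner subunit of GABPA, fell from 7.34 ± 1.46 (SD, n = 2) to 3.19 ± 0.849 (SD, n = 2) CPM (log2 fold change -1.19, standard error 0.31, adjusted p = 0.0364 from edgeR). It was not called by DESeq2 or with the GC correction (-0.996). With that correction and the replicate number as a block it was called (-1.001). Its value was -0.96 without the first unstimulated library and -0.98 without the second stimulated one, both under the fold change threshold in size. The coactivator gene EP300 had a log2 fold change of 0.37 and was not called, and CIC, the repressor of PEA3 factor genes, was at -0.03.

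**Figure D5:**
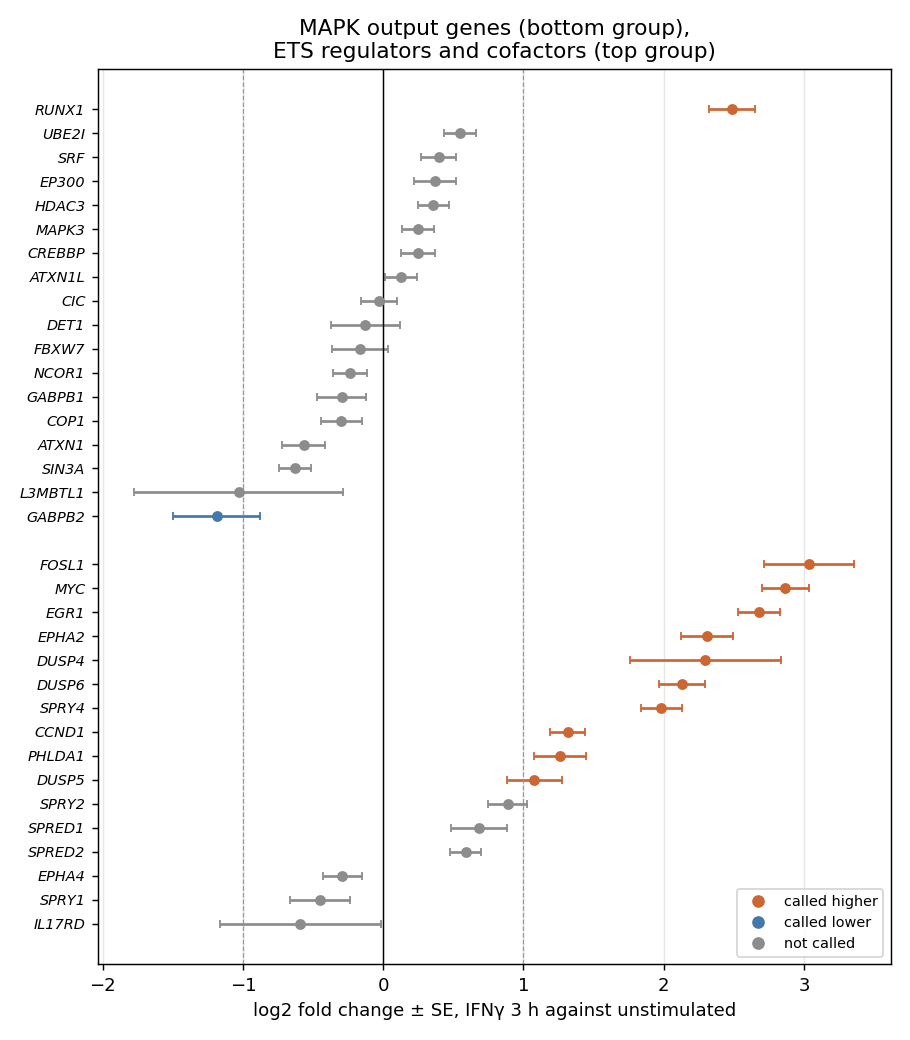
Log2 fold change with standard error (x axis) of 16 MAPK output genes (bottom) and 18 of the 20 regulators and cofactors of ETS proteins (top), colored by the call, with dashed lines at -1 and 1. In the lower group 10 genes are called higher, up to 3.04 for FOSL1, while in the upper group RUNX1 at 2.49 and GABPB2 at -1.19 are the genes called.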

How the data were processed

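Values deposited by the authors were raw read counts for Ensembl genes in 4 libraries, prepared with the TruSeq RNA kit from total RNA and not pooled. The submitters' processing notes name HISAT 0.5.1 and HTSeq 0.6.1p1, while the genome build, annotation and strand setting for these libraries are not given in the sources used here. Overlapping genes on either strand are therefore uncertain. Symbols were paired with 96.5% of identifiers, and coordinates, GC content and exon lengths came from GENCODE 44 on GRCh37, which need not be the annotation used for counting. No label says that the 2 libraries of a group came from separate cultures, so p-values measure only the spread between these libraries.

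Differential expression was tested with edgeR 4.0.16 in R 4.3.3 (quasi-likelihood test, TMM scaling, default filter, Benjamini-Hochberg adjustment over all tested genes). The standard error of a log2 fold change was its size over the root of the F statistic. Level per length was CPM per kb of union exons. Alternatives were other scalings, DESeq2 1.42.0, other filters, the replicate number as a block, each library left out, and a GC correction. In the GC correction a loess trend on GC content and length was taken out of each library. It was also fitted together with the block. The genes and lists, which are the rest of the ETS family, MAPK output genes and ETS regulators, were chosen with earlier results of these data known. The text names all 10 genes, called genes of the lists, genomic neighbors, and up to 3 of the most abundant list genes not called. Some genes that this rule would name are not reported here, though they count in the totals. GABPA, ELF2, SPRY1, IL17RD, CIC, L3MBTL1, and the untested SPI1 and ETV3L, were named after their values were seen. On simulated data with 200 genes changed by 2 on the log2 scale, the main test recovered 89.8% over 14534 genes, with 3.75% false calls. The simulated counts held no GC trend and no shared deviation of same-numbered libraries, unlike the real ones. These rates therefore need not hold for the real data.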

Additional observations from a re-analysis of the deposited data

How the results depend on the processing

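The log2 fold changes of the 10 ETS genes were recomputed under 13 alternatives, 130 values in all, of which 2 had the other sign, that of EHF without the first unstimulated library and that of ETV4 with the GC correction. In all 26 moved from the main fit by more than the SD of the 2 log2 fold changes between same-numbered libraries. That SD can be very small, as for ETV7 (4.64 and 4.62), so small shifts count as moved. The median over the 10 genes was 0.44, with a range of 0.38 to 0.52 over fits without 1 library. In those fits an arm has 1 library, which is assumed to vary like the other group. ETV7 ran from 4.50 to 4.83, ETS2 from 1.16 to 1.35 and ETS1 from 1.25 to 1.71. With the replicate block the median was 0.45, 0 other ETS genes, 10 MAPK output genes and 3 regulators were called (L3MBTL1 added), and 1388 genes in all. The deviations of same-numbered libraries correlated (r = 0.415), but the libraries share only a number in the labels. Over fits without 1 library 0 to 1 other ETS genes (ELK1, without the second unstimulated library), 7 to 9 MAPK output genes, 1 to 3 regulators (1 without the first unstimulated or the second stimulated library) and 903 to 1529 genes in all were called. Without a minimum fold change the numbers were 4 other ETS genes, 5 regulators and 2963 genes in all, and 12 MAPK output genes. Regulators called were 1 with DESeq2, 1 with the GC correction, and 3 with that correction and the replicate block together. With no filter on low counts, where edgeR set an infinite prior df, 3 were called. The summed level of the 10 genes without IFNγ was 95.5 CPM per kb, and 120 with the longest transcript as length. Depth limited EHF, ETV6, ETS1 and unstimulated ETV7, each with fewer than 30 unstimulated counts per library.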
